A study of Mus musculus with 8 samples.

Results

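The genes described here are 43 neuropeptide genes of the mouse: 16 peptide precursors, 1 peptide-binding protein, 6 granins, 3 processing enzymes and 17 peptide receptors. They were chosen by name, as a list of symbols, and all 43 were found among the 24344 distinct gene symbols of the deposited table. RNA was sequenced from occipital cortex homogenate of C57BL/6J mice at postnatal day 35. One group of 4 libraries came from mice fasted for 48 h and the other 4 from mice fed ad libitum. No transgene or drug is named for either group, and the study's title is concerned with beta-hydroxybutyrylation of brain histones. The labels do not say whether each library is 1 animal, so the p-values measure the spread between these libraries, which may be technical in part.

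Neuropeptides are cut from larger precursor proteins. Granins help to pack the precursors into dense-core vesicles, where convertases such as the one encoded by Pcsk2 cleave them, the carboxypeptidase Cpe trims the ends and Pam adds the terminal amide that many peptides need. The released peptides act on G protein-coupled receptors. In the cortex most peptide precursors, among them somatostatin, neuropeptide Y and vasoactive intestinal peptide, are made by subsets of inhibitory interneurons, and cholecystokinin is made by excitatory neurons as well.

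Values are FPKM, fragments scaled to transcript length and library size. A gene was tested where at least 4 libraries reached 1 FPKM, which 12377 genes and 37 of the 43 did. Differences are fasted minus ad libitum in log2(FPKM + 1), where the added 1 shrinks the change of low genes, and come from limma with Benjamini-Hochberg adjustment over all tested genes. A gene was called at an adjusted p under 0.05. Nts, Trh, Oprk1, Oprm1, Tacr1 and Tacr3 stayed under the filter. Depth was estimated from the FPKM steps of single-transcript genes at 17000000 to 21400000 fragments per library.

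Of the 37 tested genes 2 were higher after fasting, Scg5 and Oprl1, and 6 were lower, Adcyap1, Crh, Cckbr, Sstr1, Crhr1 and Oprd1. Fasted libraries did not overlap the ad libitum ones for these same 8. The higher share was 5.41%, against 9.56% of all tested genes called higher, and the lower share 16.2%, against 16.3% of all tested genes called lower. As a list the genes were therefore called lower about as often as any gene, and what follows describes single genes. Groups without overlap made up 11.1% (higher) and 16.5% (lower) of all tested genes. The median difference of the 37 was -0.04, beside -0.02 over all tested genes, with 16 positive and 21 negative. Fitting the replicate number as a block gave 6 higher and 10 lower, when 14.3% of all tested genes were called higher and 22.1% lower. No label says that the replicate number pairs libraries. Scaling the libraries also moved the split: 6 higher and 6 lower by median ratios, and 5 and 6 by quantiles, against 1755 higher and 1936 lower, and 1792 and 1909, over all genes (1183 and 2015 as deposited). The 13 tested receptors had a median of -0.14 with 1 higher and 4 lower, the 14 tested precursors -0.12 with 0 and 2, the 6 granins 0.07 with 1 and 0, and the 3 enzymes 0.11 with 0 and 0. Under the replicate block these counts were 2 and 6 for receptors, 1 and 3 for precursors, 2 and 1 for granins, and 1 and 0 for enzymes.

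**Figure D1:**
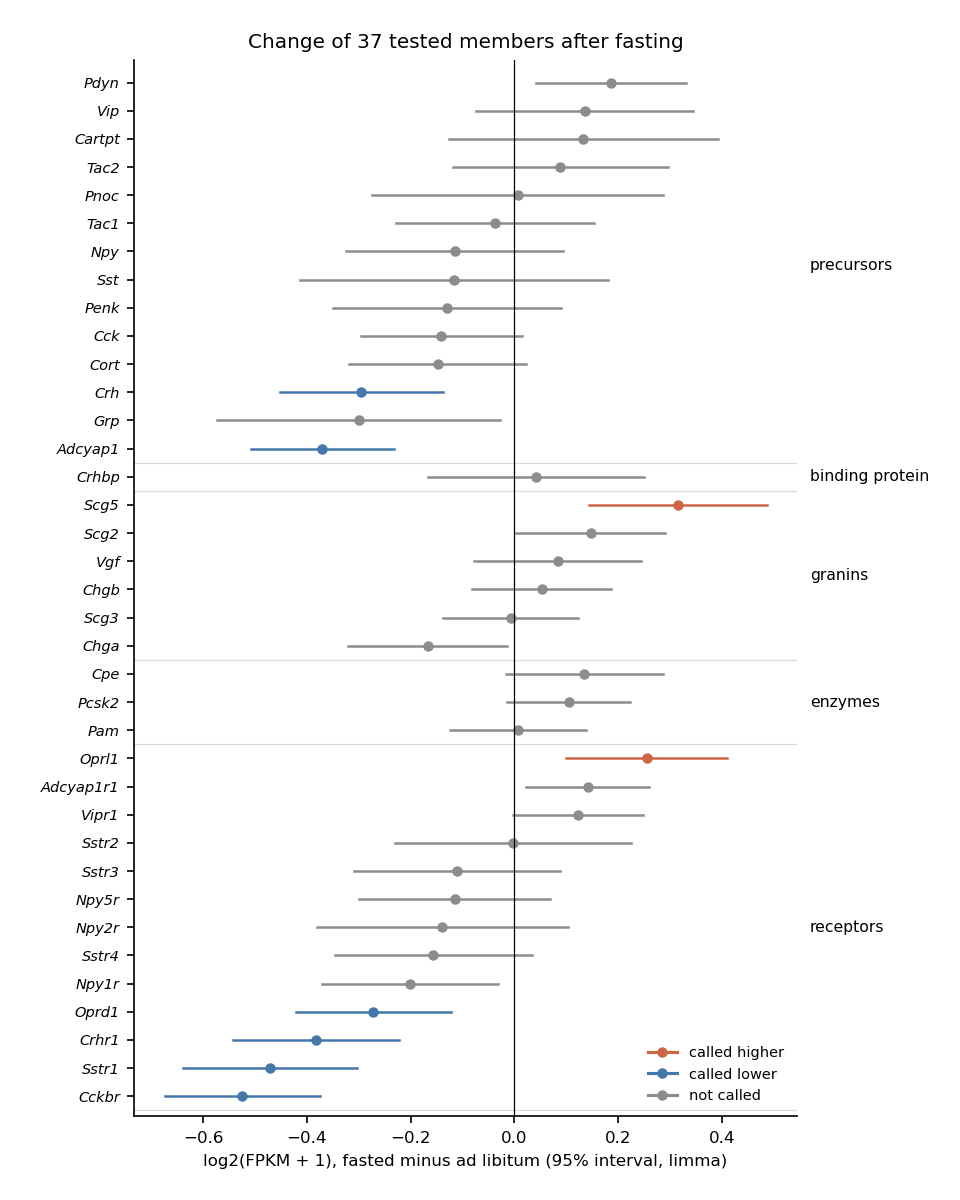
Difference between fasted and ad libitum libraries for the 37 tested genes, ordered by role, on the log2(FPKM + 1) scale; points are limma estimates, bars their 95% intervals, and colour marks the call. The called genes run from Cckbr at -0.52 to Scg5 at 0.32.

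The tissue label was checked against marker lists. The sum of 28 inhibitory neuron markers ran from 406.2 to 454.8 FPKM in ad libitum libraries and from 406.9 to 451.5 in fasted ones. The sum of 18 excitatory neuron markers ran from 1819 to 2248 and from 1872 to 2146. The 10 hypothalamic markers, Pomc and Agrp among them, summed to at most 1.62 FPKM in any library, with 0 tested and Hmx2 at 0 in all 8. The 10 hippocampal markers summed to 61.75 to 73.55 FPKM in ad libitum and 49.27 to 78.79 in fasted libraries. Most of this sum came from Lypd1 (means of 27.35 ad libitum and 21.09 fasted) and Wfs1 (28.11 and 35.25). Lct, Dsp, Tdo2 and Iyd averaged at most 0.196 FPKM in either group. The 8 thalamic markers summed to 21.03 to 23.51 and 20.84 to 23.03. In each of these 2 lists 1 gene was called lower, Lypd1 and Slc17a6 respectively, and 0 higher. The 2 lists share Neurod1 and Slc17a6, respectively, with the excitatory neuron list. Ad libitum replicate 3 stood apart: it held Xist at 32.2 FPKM together with Y-linked genes at 20.2, levels between those of the other libraries, which had either Xist (62.9 to 77.5) or Y-linked RNA (37.1 to 50.5). Without this library the 6 lower genes and Scg5 were still called, and Oprl1 was not. The summed level of the 6 microglial markers was 69.0 to 89.6 FPKM in ad libitum and 58.9 to 63.9 in fasted libraries, with 4 of 6 called lower and 0 at 0. Of 8 astrocyte markers 4 were called lower and 0 higher, with overlapping sums of 768.1 to 828.5 and 745.6 to 815.9. Their part in the results below was not tested. The shares of all tested genes were 9.56% called higher and 16.3% called lower. In RNA from whole tissue, fewer cells of a type and less RNA per cell cannot be told apart.

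Several of these genes are textbook targets of the cyclic AMP response, whose transcription factor CREB binds the CRE, TGACGTCA, or its shorter form, TGACG, which every CRE also contains. The 250 bases before each listed start were searched on both strands in the RefSeq promoter table (GRCm38.p6), which held 35 of the 43. The CRE was found in 5 of the 35 (14.3%), against 1.77% of the 27025 symbols in the table and 3.20% of the 9420 tested ones. None of these 5 genes was called, although Scg2 was with the replicate block. Crh and Sstr1, both called lower, were among the genes without a promoter in the table and were not searched. The stretches are shown 5′ to 3′ on the gene's strand with the CRE in capitals. They are kept to 30 bases for the genes whose GENCODE exon reaches into them.
Sst (chr16:23890874-23890903, minus strand): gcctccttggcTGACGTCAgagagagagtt
Cartpt (chr13:99900777-99900806, minus strand): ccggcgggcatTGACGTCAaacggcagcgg
Scg2 (chr1:79440076-79440105, minus strand): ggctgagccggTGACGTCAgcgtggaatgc
Chgb (chr2:132781559-132781588, plus strand): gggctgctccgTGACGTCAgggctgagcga
Sstr2 (chr11:113619243-113619302, plus strand): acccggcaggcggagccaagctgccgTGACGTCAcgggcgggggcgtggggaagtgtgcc

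The short form was found in 21 of the 35 (60%), against 19.8% of all symbols and 31.3% of the tested ones. Of the called genes with a promoter in the table, Adcyap1 and Scg5 carried it, 1 lower and 1 higher after fasting, and both are shown with the motif in capitals.
Adcyap1 (chr17:93198898-93198957, plus strand): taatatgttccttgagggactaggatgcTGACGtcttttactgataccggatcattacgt
Scg5 (chr2:113829235-113829294, minus strand): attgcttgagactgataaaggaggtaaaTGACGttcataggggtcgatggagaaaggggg
The E-box CACGTG, a palindrome that neither contains the CRE nor lies within it, was found in 6 of the 35 (17.1%), against 6.86% of all symbols and 10.1% of the tested ones. Among the 6 were Cckbr and Oprd1, both lower, shown with the E-box in capitals.
Cckbr (chr7:105425598-105425657, plus strand): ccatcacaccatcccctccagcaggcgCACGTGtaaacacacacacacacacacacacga
Oprd1 (chr4:132144540-132144599, minus strand): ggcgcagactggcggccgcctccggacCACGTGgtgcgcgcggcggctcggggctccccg
These matches describe letters in a window, and no binding was measured. The groups of genes with and without a motif were not compared.

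Among the precursors the 2 genes that fell were Adcyap1 and Crh. Adcyap1 (chr17:93199017-93206537, plus strand, GRCm38, a protein-coding gene) encodes PACAP, a peptide that raises cyclic AMP. Its level was 7.47, 7.43, 6.98 and 7.01 FPKM in ad libitum replicates 1 to 4 and 5.85, 4.86, 5.12 and 5.64 in fasted replicates 1 to 4. Every fasted library lay under every ad libitum one. The mean fell from 7.22 ± 0.265 to 5.37 ± 0.455 FPKM (SD, n = 4 each), a log2 difference of -0.37 ± 0.063 (SE; limma, adjusted p = 0.00196).

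Crh (chr3:19693401-19695396, minus strand, GRCm38) encodes corticotropin-releasing hormone, which in the cortex is made by a subset of interneurons. It measured 3.36, 2.99, 3.40 and 3.37 FPKM in ad libitum libraries and 2.58, 2.11, 2.65 and 2.63 in fasted ones. The groups did not overlap, and replicate 2 was the lowest of both. The mean fell from 3.28 ± 0.194 to 2.49 ± 0.260 FPKM, a log2 difference of -0.30 ± 0.071 (SE; limma, adjusted p = 0.012). By the estimated depth the gene rested on only 47 to 87 fragments per library.

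**Figure D2:**
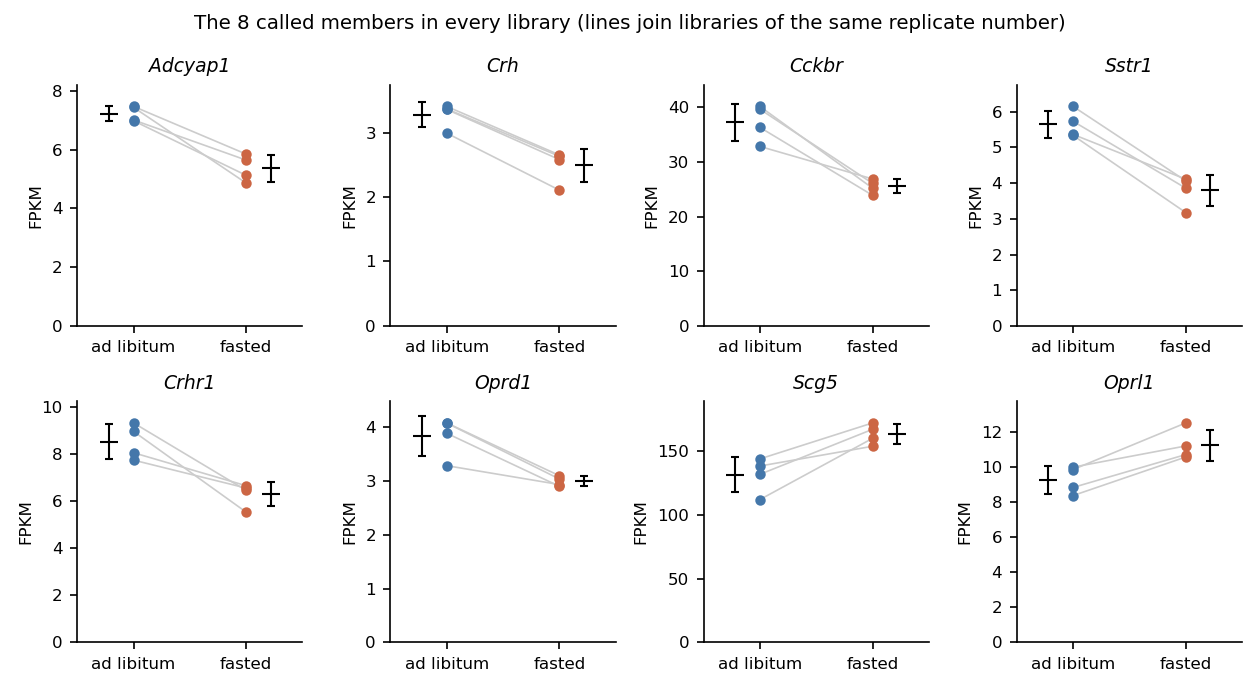
FPKM of the 8 called genes in every library; points are libraries, crosses with bars the mean ± SD of 4, and grey lines join libraries that share a replicate number. In every panel all fasted libraries lie on 1 side of all ad libitum ones, as for Cckbr with means of 37.3 and 25.5 FPKM.

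The abundant interneuron peptides did not pass the test. Sst, somatostatin, was the most abundant precursor per kilobase, at 298, 270, 241 and 191 FPKM in ad libitum libraries and 267, 225, 238 and 187 in fasted ones. The groups overlapped over most of their range, although the fasted library was lower in each of the 4 replicate numbers. The log2 difference was -0.12 ± 0.14 (SE; limma, adjusted p = 0.557, and 0.0829 with the replicate block).

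Cck, the precursor of cholecystokinin, measured 234, 233, 204 and 199.7 FPKM against 199, 196, 185 and 209, again with overlap. Npy, which encodes neuropeptide Y, measured 189, 172, 162 and 136 FPKM against 155, 145, 138 and 167. Their log2 differences were -0.14 ± 0.071 (limma, adjusted p = 0.167) for Cck and -0.11 ± 0.096 (limma, adjusted p = 0.404) for Npy. Ad libitum replicate 4 held the lowest ad libitum value of Sst, Cck and Npy alike. Vip, vasoactive intestinal peptide, was 21.3 to 25.5 FPKM in ad libitum libraries and 21.6 to 30.2 in fasted ones, a log2 difference of 0.14 (limma, adjusted p = 0.318).

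The inhibitory neuron markers gave 2 higher genes, Htr3a among them, and 3 lower ones, Satb1, Sox6 and Ndnf, among 27 tested, with a median difference of -0.01 (4 higher and 4 lower with the replicate block). Their summed level differed by -5.66 FPKM between the groups (exact two-sided permutation p = 0.771). Over all tested genes the called shares were 9.56% higher and 16.3% lower. Cort, the somatostatin-related cortistatin precursor, had a difference of -0.15 (limma, adjusted p = 0.184).

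The opioid precursors were not called either. Penk, the enkephalin precursor, was 15.3 to 21.8 FPKM in ad libitum and 15.7 to 19.4 in fasted libraries, with a log2 difference of -0.13 (limma, adjusted p = 0.367). Without ad libitum replicate 4, its lowest ad libitum library, the Penk difference was -0.23 (limma, adjusted p = 0.0353). Pdyn, the dynorphin precursor, was 5.55 to 6.65 FPKM against 6.59 to 7.76, higher in the fasted library of each replicate number. Its log2 difference of 0.19 gave an adjusted p of 0.0593 by limma and of 0.0488 with the replicate block. Both scalings called it higher, with limma adjusted p-values of 0.0233 by median ratios and 0.0268 by quantiles. Pnoc, the nociceptin precursor, had means of 1.42 FPKM in both groups.

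Penk, Pdyn and Tac1 are also abundant in the striatum, and RNA of striatal type was therefore measured beside them. The 12 striatal markers summed to 87.0 to 99.1 FPKM in ad libitum and 104.4 to 113.2 in fasted libraries, without overlap (exact two-sided permutation p = 0.0286, adjusted over 16 lists 0.229). The higher sum rested on Ppp1r1b alone, 29.2 ± 5.21 against 46.1 ± 2.62 FPKM (SD, n = 4). The other 11 markers summed to 64.4 to 68.1 FPKM in ad libitum and 58.6 to 64.2 in fasted libraries, a split made after the values were seen. Of the 6 tested markers 1 was called higher and 1 lower, against 9.56% and 16.3% of all tested genes. Of the defining markers, Drd2 and Adora2a averaged at most 0.488 FPKM in either group and Isl1 was at 0 in all libraries.

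The remaining tested precursors showed overlapping groups. Grp, gastrin-releasing peptide, had a difference of -0.30 (limma, adjusted p = 0.0981), with the fasted library lower in each replicate number and an adjusted p of 0.0158 with the replicate block. Cartpt differed by 0.13 and Tac2, the neurokinin B precursor, by 0.09. The difference of Tac1, the substance P precursor, was -0.04 and turned positive without ad libitum replicate 3 and without fasted replicate 1. Nts, neurotensin, stayed at 0.391 to 0.875 FPKM against 0.426 to 1.08 and Trh, thyrotropin-releasing hormone, at 0.362 to 0.738 against 0.635 to 0.827. At the estimated depth Nts and Trh rest on 9 to 29 and 10 to 20 fragments. Crhbp, the secreted protein that binds corticotropin-releasing hormone, averaged 8.02 ± 1.2 FPKM against 8.24 ± 0.720, a log2 difference of 0.04 (limma, adjusted p = 0.777).

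**Figure D3:**
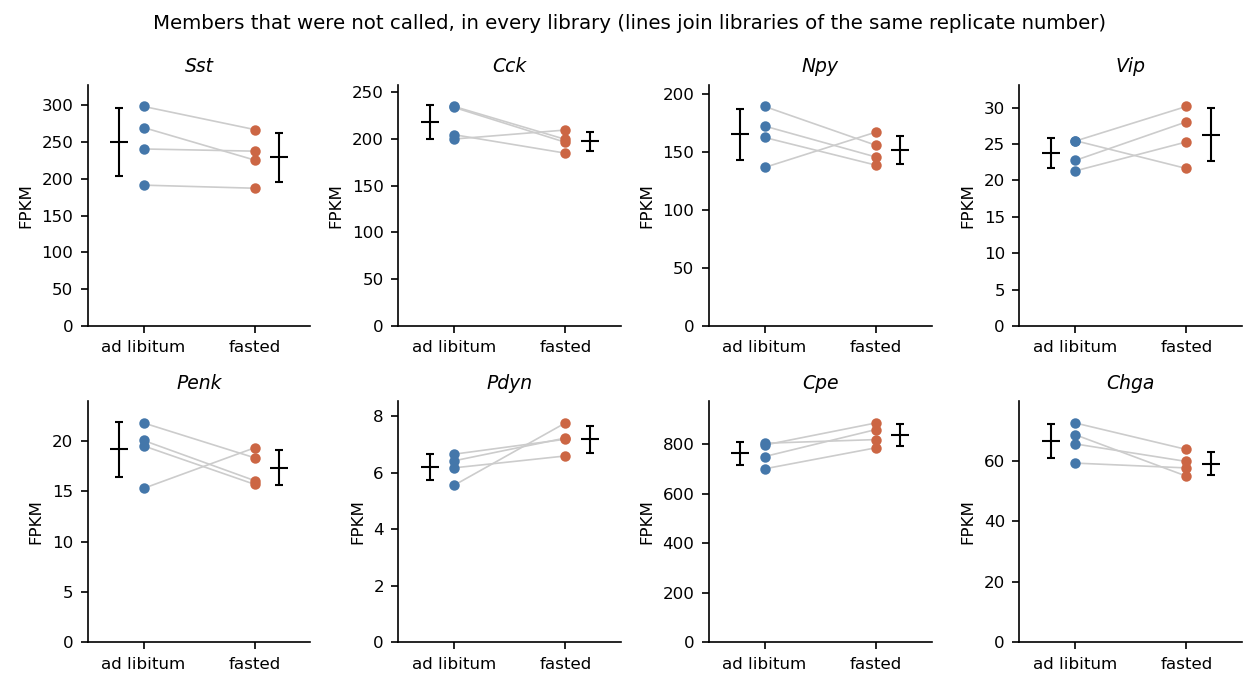
FPKM of 8 genes that were not called, in every library; points are libraries, crosses with bars the mean ± SD of 4, and grey lines join libraries that share a replicate number. The groups overlap in every panel, for example Npy with means of 165 and 151 FPKM.

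Of the 6 granins 1 rose. Scg5 (chr2:113776362-113829121, minus strand, GRCm38) encodes a small secretory protein that acts as a chaperone of the convertase encoded by Pcsk2 and keeps it inactive until it reaches the vesicle. Scg5 measured 144, 138, 132 and 112 FPKM in ad libitum libraries and 172, 154, 167 and 160.1 in fasted ones. The lowest fasted library lay above the highest ad libitum one. The mean rose from 131.6 ± 13.9 to 163.4 ± 8.02 FPKM, a log2 difference of 0.32 ± 0.078 (SE; limma, adjusted p = 0.0135).

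Chgb, chromogranin B, was the most abundant granin per kilobase, at 248, 250.3, 259 and 244 FPKM against 260.5, 245, 284 and 249.8. Scg3, a granin that tethers others to the vesicle membrane, measured 157, 148, 151 and 139 FPKM against 155, 139, 153 and 145. The values of both genes lay interleaved. The differences were 0.05 (limma, adjusted p = 0.559) for Chgb and -0.01 (limma, adjusted p = 0.942) for Scg3, the latter turning positive under both scalings.

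Chga and Scg2 lay in opposite directions without a call. Chga, chromogranin A, was 59.3 to 72.6 FPKM in ad libitum and 55.0 to 63.8 in fasted libraries, a log2 difference of -0.17 (limma, adjusted p = 0.101, 0.0225 with the replicate block and 0.0171 without ad libitum replicate 4). Scg2, secretogranin II, was 82.4 to 89.2 FPKM against 83.9 to 101.2, a log2 difference of 0.15 (limma, adjusted p = 0.12, and 0.0231 with the replicate block). The fasted library was lower for Chga and higher for Scg2 in each of the 4 replicate numbers. Vgf, a granin that responds to neuronal activity and growth factors, differed by 0.08 (limma, adjusted p = 0.433).

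Vgf, Scg2 and several of the precursors respond to neuronal activity, so 22 activity-regulated genes were read beside them. Of these 1 was higher, Dusp4 at 0.58, and 3 were lower, Nptx2 at -0.56, Jun at -0.48 and Inhba at -0.45, with a median of 0.01. Their summed level spanned 646.5 to 1410 FPKM in ad libitum libraries and 853.6 to 1341 in fasted ones. Of all tested genes 9.56% were called higher and 16.3% lower.

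None of the 3 processing enzymes was called. Cpe, the carboxypeptidase, ranked 9 by mean FPKM among the tested genes. It measured 796, 804, 749.8 and 700.3 FPKM in ad libitum and 885, 818, 859 and 785 in fasted libraries, higher in the fasted library of each replicate number but with overlapping groups. Its log2 difference was 0.13 ± 0.069 (SE; limma, adjusted p = 0.172), with an adjusted p of 0.0317 under the replicate block. The scalings parted: the difference was 0.16 by median ratios (adjusted p = 0.0146) and 0.07 by quantiles (adjusted p = 0.526).

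Pcsk2, the convertase, measured 102.5, 102.1, 103 and 96.3 FPKM against 114, 109, 111 and 101.8. Only fasted replicate 4 lay within the ad libitum range. The log2 difference was 0.11 ± 0.054 (SE; limma, adjusted p = 0.176, and 0.0258 with median-ratio scaling). Pam, the amidating enzyme, averaged 38.9 ± 1.94 and 39.1 ± 2.53 FPKM.

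Other genes of peptide processing and dense-core vesicles were counted from a separate list of 46, of which 41 were tested. Of these 3 were higher, the convertases Furin (0.25) and Pcsk7 (0.23) and the carboxypeptidase Cpm (0.38). The 4 lower ones were the peptidases Npepps (-0.36), Ece2 (-0.42) and Anpep (-0.56), and the vesicle GTPase Rab3c (-0.30). The median of the 41 was -0.04. Over all tested genes 9.56% were called higher and 16.3% lower, so these counts do not set the list apart.

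The 4 receptors that fell bind 4 different peptides. Cckbr (chr7:105425731-105470898, plus strand, GRCm38) encodes the main cholecystokinin receptor of the cortex. It measured 39.7, 40.2, 36.3 and 32.9 FPKM in ad libitum libraries and 26.1, 25.2, 23.9 and 26.9 in fasted ones. The gap between the lowest ad libitum and the highest fasted library was wider than the whole fasted range. The mean fell from 37.3 ± 3.39 to 25.5 ± 1.28 FPKM, 68.5% of the ad libitum level, with a log2 difference of -0.52 ± 0.068 (SE; limma, adjusted p = 5.02e-04). With a pseudocount of 0.1 the difference was -0.54.

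Sstr1 (chr12:58211772-58214444, plus strand, GRCm38) encodes a somatostatin receptor that lowers cyclic AMP. It measured 5.37, 5.73, 6.15 and 5.34 FPKM against 4.11, 3.86, 4.07 and 3.18. No fasted library reached the ad libitum range, and fasted replicate 4 was the lowest. The mean fell from 5.65 ± 0.381 to 3.80 ± 0.432 FPKM, a log2 difference of -0.47 ± 0.076 (SE; limma, adjusted p = 0.00153). In FPKM this was 67.4% of the ad libitum level, and with a pseudocount of 0.1 the difference was -0.56, a slightly larger fall than that of Cckbr.

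Crhr1 (chr11:104132855-104175523, plus strand, GRCm38) encodes the receptor for corticotropin-releasing hormone found on cortical excitatory neurons. It measured 8.07, 9.34, 8.98 and 7.76 FPKM against 6.67, 6.47, 5.54 and 6.57. The fasted libraries were all lower. The mean fell from 8.54 ± 0.745 to 6.31 ± 0.519 FPKM, a log2 difference of -0.38 ± 0.073 (SE; limma, adjusted p = 0.00355).

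Oprd1 (chr4:132110726-132144486, minus strand, GRCm38) encodes the delta opioid receptor, which responds to enkephalin. It measured 4.07, 3.28, 4.07 and 3.88 FPKM against 3.09, 2.93, 3.03 and 2.90. Ad libitum replicate 2 came closest to the fasted libraries, which lay close together. The mean fell from 3.83 ± 0.375 to 2.99 ± 0.0912 FPKM, a log2 difference of -0.27 ± 0.068 (SE; limma, adjusted p = 0.0141).

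Oprl1 (chr2:181715016-181720985, plus strand, GRCm38), the nociceptin receptor, was the 1 receptor that rose. It measured 9.84, 9.97, 8.82 and 8.36 FPKM against 12.5, 11.2, 10.7 and 10.5. The lowest fasted library exceeded the highest ad libitum one. The mean rose from 9.25 ± 0.786 to 11.2 ± 0.883 FPKM, a log2 difference of 0.26 ± 0.071 (SE; limma, adjusted p = 0.0216). Oprl1 was the 1 call of the 8 that leaving out a library removed, with an adjusted p of 0.0662 without ad libitum replicate 3 and of 0.0587 without fasted replicate 1.

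Adcyap1r1, the PACAP receptor, was the second most abundant receptor per kilobase. It measured 24.2, 24.1, 24.0 and 23.8 FPKM in ad libitum libraries and 26.6, 28.1, 27.6 and 24.2 in fasted ones. Fasted replicate 4 lay level with ad libitum replicate 1 and the other 3 fasted libraries lay above. The log2 difference was 0.14 ± 0.054 (SE; limma, adjusted p = 0.0758), with adjusted p-values of 0.0336 under the replicate block and 0.0266 with median-ratio scaling.

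The neuropeptide Y receptors were not called. Npy1r was 11.1 to 12.9 FPKM in ad libitum and 9.07 to 12 in fasted libraries, lower in the fasted library of each replicate number, with a log2 difference of -0.20 (limma, adjusted p = 0.0774, and 0.0283 with the replicate block). Without ad libitum replicate 4 its adjusted p was 0.0294, and 0.0289 without fasted replicate 1. Npy2r and Npy5r, at means of 0.963 to 1.54 FPKM, differed by -0.14 and -0.12.

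The other 3 somatostatin receptors also missed the threshold. Sstr2 differed by -0.003 (limma, adjusted p = 0.986), a value that was positive under both scalings. The difference of Sstr3 was -0.11 (limma, adjusted p = 0.393) and that of Sstr4 was -0.16 (limma, adjusted p = 0.207, and 0.0347 with the replicate block). Vipr1, a receptor for vasoactive intestinal peptide and PACAP, differed by 0.12 (limma, adjusted p = 0.138).

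The 4 receptors under the filter were at about 1 FPKM or less. Tacr3, the neurokinin B receptor, was 0.666 to 0.743 FPKM in ad libitum and 0.352 to 0.545 in fasted libraries, without overlap, on an estimated 24 to 50 fragments. With no filter its log2 difference was -0.27 (limma, adjusted p = 0.0118). Tacr1, the substance P receptor, averaged 0.282 FPKM against 0.283. The mu opioid receptor gene Oprm1 averaged 0.681 ± 0.268 against 0.395 ± 0.0828, and the kappa receptor gene Oprk1 0.872 ± 0.172 against 0.787 ± 0.1.

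Receptor RNA is carried in part by excitatory neurons, and of their 18 markers 2 were higher and 5 lower. The higher ones were Neurod2 and Crym, and the lower ones included Rorb (-0.39), Slc17a6 (-0.24), Neurod6 (-0.22) and Tbr1 (-0.20), with a median of -0.03 over the list (4 higher and 6 lower with the replicate block). Their part in the lower receptor levels was not tested. Of all tested genes 9.56% were called higher and 16.3% lower.

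**Figure D4:**
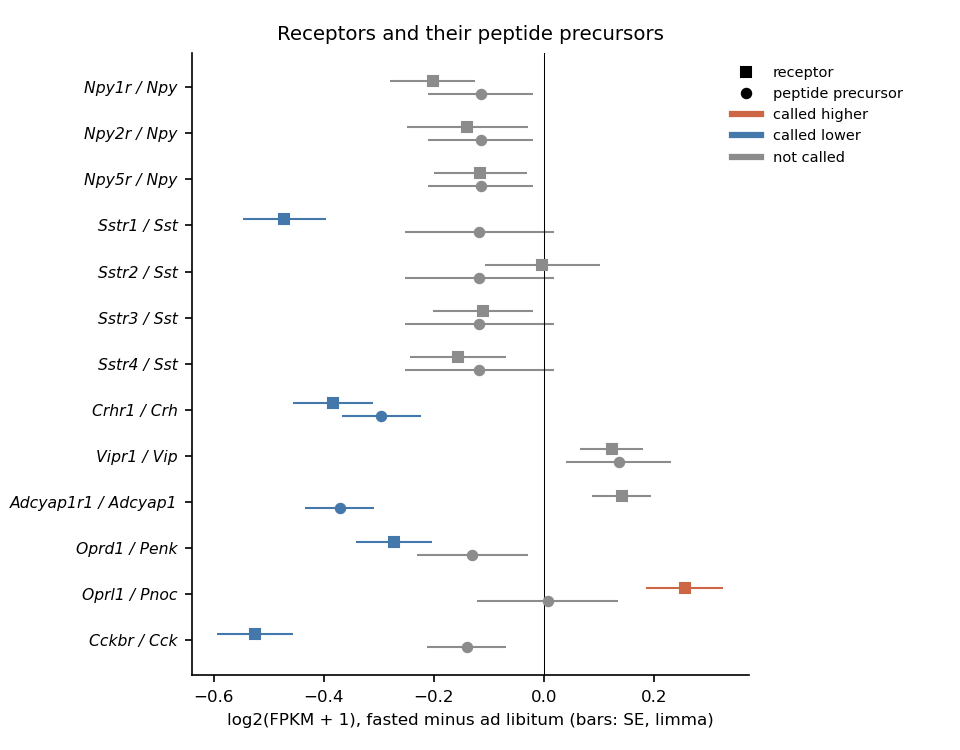
Difference between fasted and ad libitum libraries for each tested receptor (squares) above the precursor of its peptide (circles), on the log2(FPKM + 1) scale with SE bars from limma. Crhr1 and Crh were both lower, at -0.38 and -0.30, whereas Adcyap1r1 was at 0.14 and Adcyap1 at -0.37.

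Receptors were also set against their peptides within each library, as the log2 level of the first gene minus that of the second. In all 40 pairs were compared (13 of a receptor and its peptide, 10 of receptors of 1 family, 15 of granins, Crhbp with Crh, and Scg5 with Pcsk2), a comparison chosen after the values of the single genes were seen. With 4 libraries against 4 the exact two-sided permutation test cannot give less than 0.0286, and this value was reached by 10 pairs. Adjusted over the 40 pairs it came to 0.114, so that 0 pairs passed an adjusted threshold of 0.05. All of the 10 pairs except Scg2 minus Chga and Scg3 minus Chga hold a gene that was called by itself. Pairs of other genes were not compared, so no background share can be set beside the 10.

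Of the receptor and peptide pairs, 2 reached that smallest value. Cckbr minus Cck was -2.53, -2.51, -2.46 and -2.57 in ad libitum libraries and -2.89, -2.91, -2.90 and -2.91 in fasted ones, a shift of -0.38 with little spread on either side. Adcyap1r1 minus Adcyap1 was 1.58, 1.57, 1.65 and 1.63 against 2.01, 2.31, 2.22 and 1.93, a shift of 0.51. For Crhr1 minus Crh, 2 genes that both fell, the shift was -0.09 (exact permutation p = 0.486), and for the 3 neuropeptide Y receptors against Npy it was -0.09 to -0.0006, with overlap throughout.

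Within receptor families, Sstr1 minus Sstr2 shifted by -0.47 and Oprl1 minus Oprd1 by 0.53, without overlap in both cases. Sstr1 shifted against Sstr3 by -0.36 (exact permutation p = 0.0571) and against Sstr4 by -0.32 (exact permutation p = 0.0857), so for these pairs the groups overlapped. Crhbp minus Crh shifted by 0.34 (exact permutation p = 0.0571).

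Among granin pairs the widest shift was that of Scg5 against Chga. Scg5 minus Chga was 0.98, 1, 0.99 and 0.91 in ad libitum libraries and 1.42, 1.47, 1.47 and 1.46 in fasted ones, a shift of 0.48. Scg5 minus Scg3 was negative in all ad libitum and positive in all fasted libraries, going from -0.12, -0.09, -0.19 and -0.31 to 0.15, 0.15, 0.13 and 0.14, a shift of 0.32. The other pairs without overlap were Scg5 minus Chgb (0.26), Scg2 minus Chga (0.32), Scg3 minus Chga (0.16) and Scg5 minus Pcsk2 (0.21). Of the 6 pairs 3 have Chga as the second gene and 4 have Scg5 as the first, so they are not independent of one another.

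**Figure D5:**
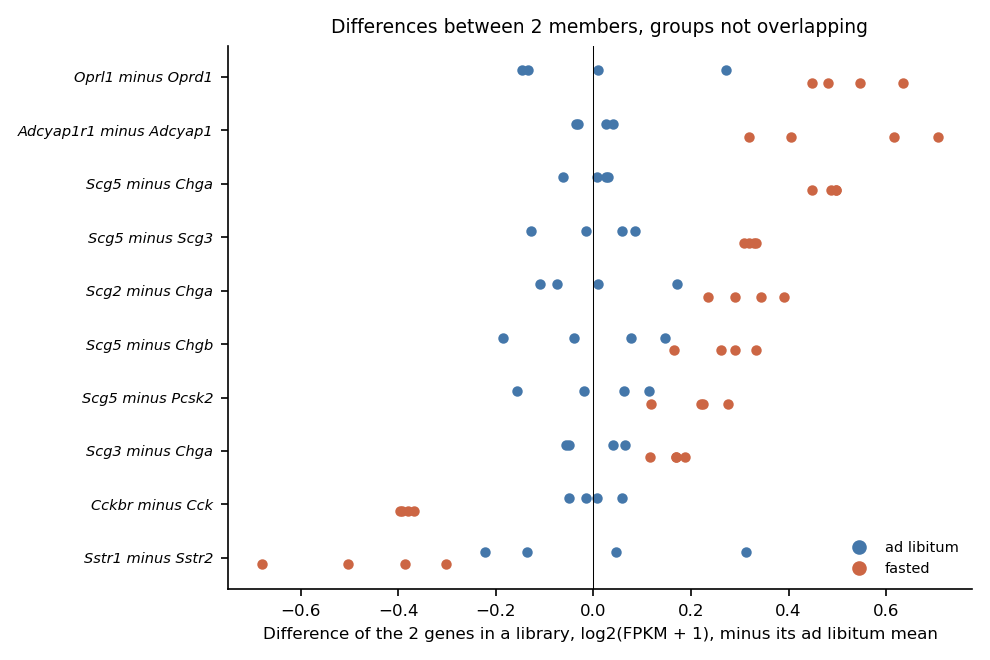
Within-library difference of log2(FPKM + 1) between 2 genes, minus its ad libitum mean, for the 10 of 40 pairs whose groups do not overlap; points are libraries. Fasted libraries lie to the right for 8 pairs and to the left for Cckbr minus Cck and Sstr1 minus Sstr2.

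The rest of the peptide system was counted from separate lists, beside 9.56% of all tested genes called higher and 16.3% called lower. Of 50 other precursors only 10 were tested, and 2 were higher, Agt (0.71), the angiotensin precursor, and Adm (0.43), adrenomedullin. Apln, the precursor of the vessel peptide apelin, fell from 5.88 ± 0.638 to 2.45 ± 0.202 FPKM, a log2 difference of -0.99 (limma, adjusted p = 2.72e-05). The median of the 10 was 0.04. Of 63 other receptors 17 were tested. Here 2 were higher, Ramp2 (0.34), a partner of the adrenomedullin receptor, and Npr3 (0.31), the natriuretic peptide clearance receptor. The 3 lower ones were Ednrb (-0.58), an endothelin receptor, Gpr83 (-0.55) and Ramp3 (-0.33), with a median of -0.10 over the list. With the replicate block the lower genes became 6 among these receptors, Ntsr2, Npr2 and Gpr37l1 being added, and 2 among the other precursors, where Nenf was added. The higher genes became 3 among the other precursors, with Nucb2 added, and stayed at 2 among the receptors. The block called 14.3% of all tested genes higher and 22.1% lower.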

How the data were processed

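Per the submitters' processing notes, TopHat and the build mm10 were used; the quantifier, annotation and strand are, in the sources used here, not given. The deposited table holds values taken as FPKM, with 24883 rows and 1 column per library; where a symbol stood on several rows (282 did), its highest mean decided. Libraries were grouped by treatment label. limma 3.58.1 in R 4.3.3 was fitted to log2(FPKM + 1), with trend and robust moderation and group as the only term, on genes with 1 FPKM or more in at least 4 of 8 libraries; Benjamini-Hochberg adjustment ran over all 12377 genes. The fit was tested on simulated data. Changes were set on the log2(FPKM + 1) scale in 200 of the 12377 genes, all with a mean above 1.5 on that scale. The fit recovered 25% of 200 genes changed 1.2-fold and 89.5% of 200 changed 1.5-fold, so small changes can go uncalled. These folds are not FPKM ratios. Far more genes were called in the data (1183 higher and 2015 lower), which loosens the adjusted threshold, so the shares do not carry over directly. Coordinates are from GENCODE M21 and promoters from RefSeq. Sums and pairs were compared by exact permutation over 70 assignments (scipy 1.17.1).

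Every gene of the list was accounted for. Called genes, the 2 most abundant of each role, Npy and Sst got every library's value, and further lists their called members. Some called members of the further lists are counted but not reported by name here. The genes and lists were chosen with earlier results of these data known.

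Same-numbered libraries of the 2 groups deviated together over all tested genes (correlations of 0.574, 0.496, 0.382 and 0.523), and were taken as paired for the block fit; over 11136 autosomal protein-coding genes these were 0.335, 0.194, 0.0761 and 0.371. The pairing comes from the data, not from a label, and the numbers do not mark the closest partner of every library. Over the autosomal genes ad libitum replicate 2 correlated more with fasted replicate 1 (0.227) than with fasted replicate 2 (0.194). Ad libitum replicate 3 correlated more with fasted replicate 4 (0.103) than with fasted replicate 3. Results of the block fit rest on this uncertain pairing. Alternatives were a pseudocount of 0.1, no filter, median-ratio and quantile scaling, the replicate block, a term for odd and even replicate numbers, no trend, and each library left out in turn.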

Additional observations from a re-analysis of the deposited data

Results flagged for a closer look

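In 86 groups of 4 libraries, 1 for each gene of the list and each group, the lowest or highest library was compared with the rest, and chance alone sets apart about 1 in 20 such groups. In 4 groups a library stood apart, about as many as that rate gives by chance. Replicate 2 was the lowest library for Crh in both groups, at 2.99 FPKM in ad libitum and 2.11 in fasted. Fasted replicate 2 was also the lowest for Scg2, at 83.9 FPKM, and without it Scg2 was called higher (0.21 on the log2 scale; limma, adjusted p = 0.0274). Ad libitum replicate 4 was the lowest for Pcsk2, at 96.3 FPKM.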

How the results depend on the processing

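Of the 8 calls 7 held in all 15 alternative fits, and Oprl1 was lost without ad libitum replicate 3 and without fasted replicate 1. The count of higher genes in the list moved from 2 to 6 with median-ratio scaling, to 5 with quantile scaling (1792 over all genes) and to 6 with the replicate block, and ranged from 1 to 3 with a library left out. The count of lower ones moved from 6 to 10 with the paired fit (replicate block), and ranged from 6 to 9 with a library left out, the 9 without ad libitum replicate 4, where Penk, Chga and Npy1r were added. Directions reversed only for genes that were not called: Scg3 was 0.0219 with median-ratio and 0.0371 with quantile scaling, and Sstr2 0.0236 and 0.0129. With a library left out, Tac1 ranged from -0.104 to 0.0258, Crhbp from -0.0493 to 0.11, Pnoc from -0.112 to 0.0811, Scg3 from -0.0385 to 0.0234, Sstr2 from -0.127 to 0.0491 and Pam from -0.0234 to 0.0485. The cause of these moves was not tested. Without fasted replicate 3, Pdyn and Grp were called, and without fasted replicate 4, Adcyap1r1. Depth is an estimate, and genes at about 1 FPKM or less, such as Nts, Trh and Tacr3, rest on few fragments.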
